A study of Mus musculus with 8 samples.

Results

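The genes described here encode proteins of the extracellular matrix other than collagens, enzymes that cross-link or cut the matrix, and surface proteins of fibroblasts. The 36 genes were listed by function. A total of 33 had a probe set of their own on the array, out of 18782 genes with one, and where a gene had several the brightest on average was read. Mfap4 and Loxl3 share their probe sets with Mapk7 and Htra2 in the platform annotation, and Fbn1 was not matched to a probe set, so these 3 were not analysed here. Of the 33 genes, 32 had 1 probe set and Loxl2 had 2.

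RNA came from thoracic perivascular fat, the adipose tissue that lies against the outer wall of the thoracic aorta. A total of 4 samples came from RictoraP2KO mice and 4 from control mice of genotype Rictorfl/fl, whose Rictor alleles are floxed without the deletion. In RictoraP2KO mice Cre recombinase is driven by the promoter of aP2 (Fabp4), a gene of fat cells, and the series title names deletion in brain as well as fat. All mice of both groups were males of 17 to 22 weeks, fasted overnight and killed at 9 in the morning. Each sample was hybridised to 1 Affymetrix array. Separate animals are not stated, so each p-value measures only how far the samples of a group spread, which may be technical. Values are log2 signals. Each difference is the RictoraP2KO mean minus the control mean of these log2 signals, given with its standard error (SE) or 95% interval, and the number of arrays limits the precision. A test was passed where the limma p-value, adjusted over all 28371 probe sets by the Benjamini-Hochberg method, was under 0.05.

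The outer layer of the aorta passes into perivascular fat without a sharp border, and fibroblasts of that layer and of the fat stroma make most of its matrix. Elastin is laid down on a scaffold of fibrillin microfibrils with the help of fibulins and is cross-linked by lysyl oxidases. Small leucine-rich proteoglycans such as decorin coat collagen fibrils and set their spacing. Matricellular proteins such as periostin and thrombospondins act between cells and the matrix, and metalloproteinases and their tissue inhibitors (TIMPs) govern its turnover.

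The Rictor signal was 6.80, 6.66, 6.60 and 6.68 in RictoraP2KO replicates 1 to 4, against 6.49, 6.56, 6.49 and 6.61 in control replicates 1 to 4. It was thus not lower in the arrays labelled RictoraP2KO, with a difference of 0.145 (SE 0.063), and since the deleted exons are not named, the directions below rest on the labels alone. Markers of fat cells were present, with 9 of 10 above the array median of 3.764 in their mean. Some arrays carried signal of a neighbouring tissue. Sftpc, a surfactant gene of lung, reached 9.20 in control replicate 2, while the other 7 arrays lay between 1.77 and 1.92. Th, the first enzyme of catecholamine synthesis in neurons, reached 5.71 in control replicate 3, with 2.50 to 3.16 elsewhere. Myh4, a myosin of fast skeletal muscle, reached 4.94 in RictoraP2KO replicate 2, with 2.11 to 2.37 elsewhere. Another gene high in a single array was Lep, which encodes leptin and is itself one of the fat cell markers. It reached 5.81 in RictoraP2KO replicate 1, with 2.74 to 3.755 elsewhere.

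None of the 33 matrix and fibroblast genes passed the test, although more of them lay above 0 than below. Differences were above 0 for 27 genes and below 0 for 6, which is 81.8% above 0 where 46.8% of all genes were. The median difference was 0.13, beside -0.0080 over all genes. The count passing was 0 of 33, with limma adjusted p-values from 0.651 to 0.992, where 0.00532% of all genes passed. At an unadjusted p under 0.05 there were 3 genes, 9.09% of the 33, where 6.48% of all genes lay. All 3 were higher in RictoraP2KO and 0 were lower, beside 2.92% higher and 3.56% lower among all genes. These 3, Postn, Loxl2 and Pdgfrb, were also the 3 genes (9.09%) whose values did not overlap between the groups, beside 3.57% of all genes in either direction and 1.5% in the same direction. Among the 10411 genes at or above the array median, 7.18% had an unadjusted p under 0.05 (3.09% higher, 4.08% lower) and 3.28% did not overlap (1.39% higher). The 95% interval included 0 for the other 30 genes, with half-widths from 0.14 for Fbn2 to 0.82 for Thbs1. RNA was taken from whole tissue, in which more cells of a type and more RNA per cell cannot be told apart.

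Leaving out RictoraP2KO replicate 1 lowered the median difference to 0.057, with 22 of 33 genes above 0 where 47.1% of all genes were. Without RictoraP2KO replicate 3 the median was 0.20. It was 0.08 with RictoraP2KO replicate 2 and control replicates 2 and 3, which carried signal of muscle, lung and neurons, left out together. The count above 0 was then 25, where 47.4% of all genes were, but it included Sparc, whose difference was 0.0. The arrays that remained still differed in heart signal. Of 8 markers of cardiac muscle 0 then lay above 0, with a median of -0.91, where over all 8 arrays 2 did, with a median of -0.0985. For 28 of the 33 genes leaving out some single array shrank the difference by over 1.5 times or turned its sign, and leaving out RictoraP2KO replicate 1 did so for 16. The other 5 were Postn, Loxl2, Pdgfrb, Mfap5 and Mfap2.

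**Figure D1:**
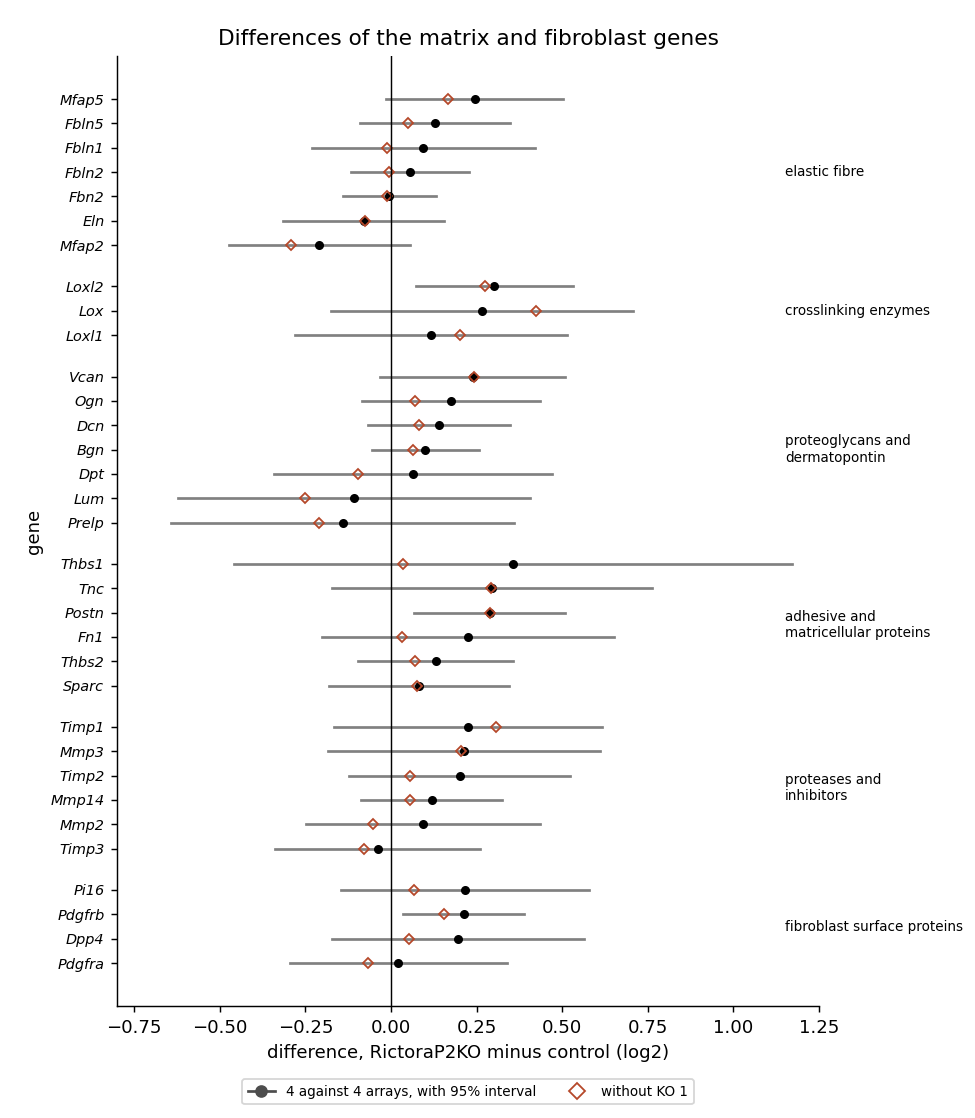
Difference of each gene, RictoraP2KO minus control on the log2 scale, from 4 against 4 arrays (black points, lines for the 95% interval) and without RictoraP2KO replicate 1, written KO 1 (open diamonds), with genes grouped by function. Only the intervals of Postn, Loxl2 and Pdgfrb leave out 0, and the diamonds of Fn1 and Thbs1 lie near 0 at 0.03.

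Among the adhesive and matricellular genes all 6 had differences above 0 and 0 passed. Postn, which encodes periostin, a protein of fibroblasts that binds collagen and integrins, had signals of 9.024, 9.179, 9.012 and 8.884 in the 4 RictoraP2KO arrays, against 8.882, 8.879, 8.613 and 8.570 in the 4 control arrays. The groups did not overlap, but the lowest RictoraP2KO array and the highest control array lay almost at the same value. The difference was 0.29 (SE 0.097, interval 0.07 to 0.51; limma adjusted p = 0.651), and it stayed between 0.23 and 0.34 when any 1 array was left out.

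Fn1, which encodes fibronectin, the glycoprotein on which other matrix proteins assemble, had signals of 9.78, 9.17, 8.71 and 9.13 in RictoraP2KO replicates 1 to 4, against 8.99, 8.89, 9.00 and 9.02 in control replicates 1 to 4. The control arrays lay close together, while the RictoraP2KO arrays held both the highest and the lowest of the 8 values. The difference of 0.225 (SE 0.188) became 0.03 without RictoraP2KO replicate 1. Thbs1, which encodes thrombospondin 1, an activator of latent TGF-beta, had the widest range of the 33 genes, 1.79 between its lowest and highest array. It stood at 8.26, 7.25, 6.47 and 7.19 in RictoraP2KO replicates 1 to 4, against 7.28, 6.62, 6.47 and 7.37 in control replicates 1 to 4. Here too replicate 1 was the highest RictoraP2KO array, and without it the difference of 0.36 (SE 0.359) became 0.03.

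Tnc, which encodes tenascin C, a glycoprotein of remodelling tissue, had signals of 4.67, 4.58, 4.50 and 4.86 in the RictoraP2KO arrays, against 4.43, 4.30, 3.79 and 4.91 in the control arrays. Its highest and its lowest value were both controls, in replicates 4 and 3. The difference of 0.2955 (SE 0.206) became 0.11 without control replicate 3 and 0.48 without control replicate 4. It was 0.0073 without the 3 arrays of foreign tissue signal. Thbs2, which encodes thrombospondin 2, an inhibitor of blood vessel growth, differed by 0.13 (SE 0.099), or by 0.07 without RictoraP2KO replicate 1, its highest array. Sparc, which encodes a calcium-binding protein that takes part in collagen assembly, averaged 10.57 ± 0.05 in RictoraP2KO arrays and 10.485 ± 0.25 in control arrays (SD, n = 4 each). Its RictoraP2KO values all lay within the control range, with a difference of 0.08 (SE 0.116).

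**Figure D2:**
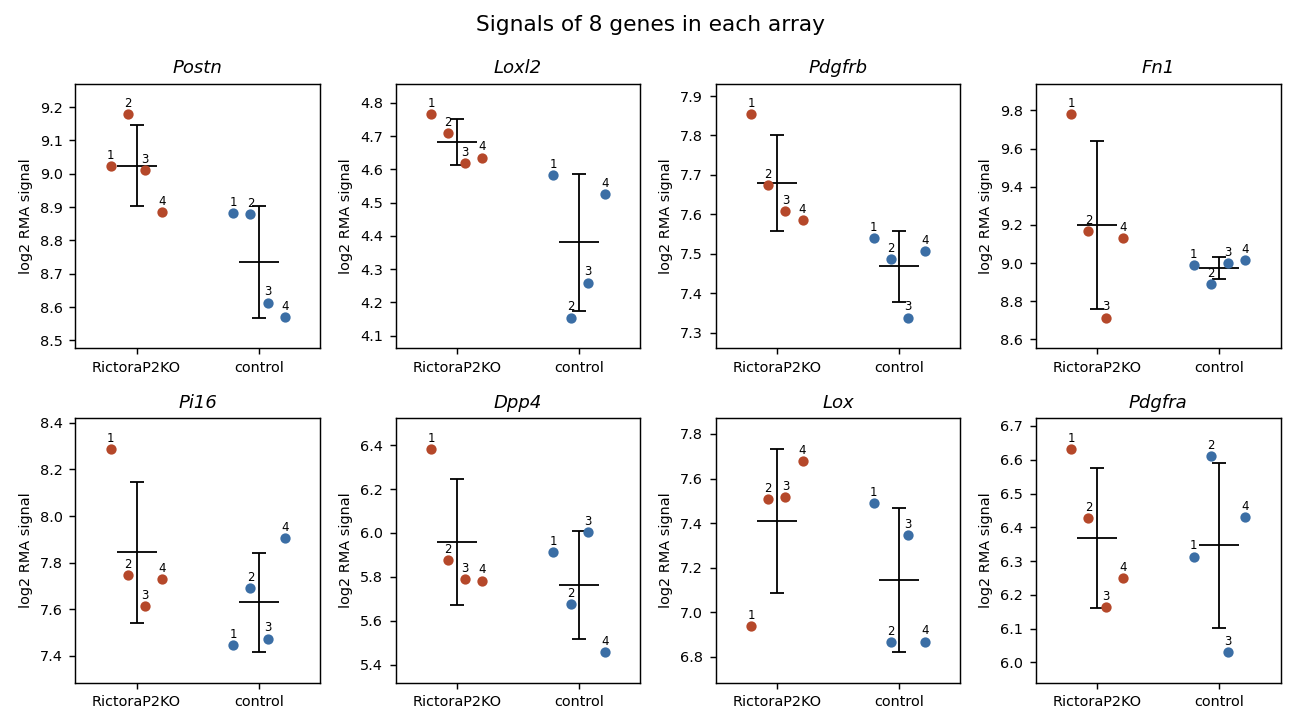
Log2 RMA signal of 8 genes in each array, RictoraP2KO on the left and control on the right of each panel, with replicate numbers beside the points and mean ± SD as bars. The scales differ between panels; the groups do not overlap for Postn, Loxl2 and Pdgfrb, and RictoraP2KO replicate 1 is the highest point for Loxl2, Pdgfrb, Fn1, Pi16, Dpp4 and Pdgfra but the lowest of its group for Lox.

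The elastic fibre genes differed in either direction, 4 above 0 and 3 below among 7 measured, and 0 passed. Mfap5, which encodes a microfibril glycoprotein made by fibroblasts of the outer vessel wall, had signals of 7.68, 7.43, 7.14 and 7.53 in RictoraP2KO replicates 1 to 4, against 7.11, 7.10, 7.29 and 7.30 in the controls. Only RictoraP2KO replicate 3 reached into the control range. The difference was 0.24 (SE 0.114; limma adjusted p = 0.710), or 0.35 without that array and 0.17 without RictoraP2KO replicate 1. Mfap2, which encodes the other small microfibril glycoprotein measured, had the opposite sign. Its signals were 5.94, 5.54, 5.82 and 5.49 in the RictoraP2KO arrays, against 5.74, 6.09, 5.91 and 5.895 in the controls, a difference of -0.21 (SE 0.117; limma adjusted p = 0.749). The groups overlapped, with RictoraP2KO replicates 2 and 4 below every control array, and control replicate 2, which carried lung signal, was the highest array. The difference shrank to -0.07 without the 3 arrays of foreign tissue signal.

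Eln, the gene of elastin itself, averaged 5.45 ± 0.14 in RictoraP2KO arrays and 5.53 ± 0.18 in control arrays (SD, n = 4 each). Its 2 highest arrays were control replicates 3 and 2, and the difference was -0.08 (SE 0.104, interval -0.31 to 0.16). It ran from -0.14 to -0.03 with 1 array left out, and was 0.02 with the 3 arrays of foreign tissue signal left out. The fibulins, which link elastin to microfibrils and to basement membranes, differed by 0.13 (SE 0.097) for Fbln5, 0.09 (SE 0.144) for Fbln1 and 0.06 (SE 0.076) for Fbln2. Each was highest in RictoraP2KO replicate 1, and without it the differences were 0.05 for Fbln5, -0.01 for Fbln1 and -0.0064 for Fbln2. Fbn2, the fibrillin known mainly from embryonic tissue, lay below the array median in all 8 arrays, between 2.10 and 2.27.

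All 3 measured cross-linking enzymes had differences above 0 and 0 passed. Loxl2, which encodes lysyl oxidase-like 2, had signals of 4.77, 4.71, 4.62 and 4.64 in RictoraP2KO replicates 1 to 4, against 4.58, 4.15, 4.26 and 4.53 in control replicates 1 to 4. The groups did not overlap, and the RictoraP2KO arrays lay closer together than the controls. The difference was 0.30 (SE 0.101, interval 0.07 to 0.53; limma adjusted p = 0.651), with values from 0.23 to 0.37 when 1 array was left out and 0.12 without the 3 arrays. Its dimmer second probe set gave 0.04 (SE 0.104), so the 2 probe sets of this gene gave different values.

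Lox, the founding lysyl oxidase, had signals of 6.94, 7.51, 7.52 and 7.68 in RictoraP2KO replicates 1 to 4, against 7.49, 6.87, 7.35 and 6.87 in the controls. Replicates 2 to 4 of RictoraP2KO lay above every control array, and replicate 1 lay among the controls. The difference of 0.27 (SE 0.194; limma adjusted p = 0.797) became 0.42 without that array (limma adjusted p = 0.656). It was 0.17 without control replicate 2 or without control replicate 4, and 0.18 without RictoraP2KO replicate 4. Loxl1, the paralog required for renewal of elastic fibres in adult mice, differed by 0.12 (SE 0.1755), and its highest and lowest values, 6.495 and 5.681, were both controls.

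Of the 7 genes for proteoglycans and dermatopontin, 5 had differences above 0 and 2 below, and 0 passed. Vcan, which encodes the large proteoglycan versican, had signals of 4.75, 5.10, 4.54 and 4.67 in the RictoraP2KO arrays, against 4.51, 4.48, 4.42 and 4.69 in the controls. RictoraP2KO replicates 1 and 2 lay above every control array and the other values overlapped, with a difference of 0.24 (SE 0.119; limma adjusted p = 0.726), or 0.13 without RictoraP2KO replicate 2. The decorin gene Dcn differed by 0.14 (SE 0.091), and Bgn, the gene of its relative biglycan, by 0.10 (SE 0.068, interval -0.05 to 0.26). Ogn, which encodes osteoglycin, differed by 0.18 (SE 0.115). These 3 leucine-rich proteoglycan genes were each highest in RictoraP2KO replicate 1, and without it their differences were 0.08 for Dcn, 0.06 for Bgn and 0.07 for Ogn.

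The remaining genes of the group each changed sign when some single array was left out. Lum, which encodes lumican, a regulator of collagen fibril width, had signals of 6.47, 6.02, 6.295 and 5.396 in the RictoraP2KO arrays, against 6.36, 6.29, 5.79 and 6.18 in the controls. Its highest and lowest values both belonged to RictoraP2KO, and the difference of -0.11 (SE 0.226) became 0.11 without RictoraP2KO replicate 4. Prelp, which encodes a proline- and arginine-rich leucine-rich protein that anchors collagen to basement membranes, reached 10.01 in control replicate 1, while the other 7 arrays lay between 8.955 and 9.446. Its difference of -0.14 (SE 0.221) became 0.08 without that control. Dpt, which encodes the decorin-binding protein dermatopontin, differed by 0.06 (SE 0.179) and by -0.10 without RictoraP2KO replicate 1.

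Among proteases and their inhibitors 5 of 6 genes had differences above 0 and 0 passed. Timp2, which inhibits metalloproteinases and also takes part in the activation of Mmp2, had signals of 9.10, 8.58, 8.41 and 8.57 in RictoraP2KO replicates 1 to 4, against 8.32, 8.40, 8.53 and 8.61 in the controls. Apart from replicate 1 the RictoraP2KO arrays lay within the control range, and the difference of 0.20 (SE 0.142) became 0.06 without it. The gelatinase gene Mmp2 itself differed by 0.09 (SE 0.1502), and by -0.05 without that array. Mmp14, the membrane-bound activator of Mmp2, differed by 0.12 (SE 0.091), and by 0.06 without that array, its highest.

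Timp1, an inhibitor that is induced in injured tissue, was highest in RictoraP2KO replicate 2, the array with muscle signal. Only in that array did Timp1 lie above the array median of 3.764. Its signals were 3.40, 4.10, 3.55 and 3.53 in the RictoraP2KO arrays, against 3.74, 3.32, 3.14 and 3.48 in the controls, a difference of 0.225 (SE 0.172). The difference became 0.07 without that array and -0.12 without the 3 arrays. Mmp3, which encodes stromelysin 1, stayed below the array median in every array and differed by 0.21 (SE 0.175). That difference was 0.08 without control replicate 1 and 0.10 without RictoraP2KO replicate 2. Timp3, the inhibitor that is bound to the matrix, averaged 8.97 ± 0.21 in RictoraP2KO arrays and 9.01 ± 0.21 in control arrays (SD, n = 4 each), a difference of -0.04 (SE 0.132).

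The 4 genes for fibroblast surface proteins had differences above 0 and 0 passed. Pdgfrb, the receptor for platelet-derived growth factor on pericytes and fibroblasts, had signals of 7.85, 7.67, 7.61 and 7.59 in RictoraP2KO replicates 1 to 4, against 7.54, 7.49, 7.34 and 7.51 in control replicates 1 to 4. The groups did not overlap, and the difference was 0.21 (SE 0.078, interval 0.04 to 0.39; limma adjusted p = 0.668). It was 0.15 without RictoraP2KO replicate 1. Pdgfra, the paralog that marks fibroblasts and progenitors of fat cells, averaged 6.37 ± 0.21 in RictoraP2KO arrays and 6.35 ± 0.24 in control arrays (SD, n = 4 each). The groups overlapped throughout, with a difference of 0.02 and an interval from -0.30 to 0.34.

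Pi16 and Dpp4 both mark a population of fibroblasts of the outer vessel wall and of fat septa from which other fibroblasts and fat cells are thought to arise. Pi16 had signals of 8.29, 7.75, 7.61 and 7.73 in RictoraP2KO replicates 1 to 4, against 7.45, 7.69, 7.47 and 7.905 in the controls. Dpp4, which encodes a surface peptidase, had signals of 6.38, 5.88, 5.79 and 5.78 in RictoraP2KO replicates 1 to 4, against 5.91, 5.68, 6.004 and 5.46 in the controls. For both genes RictoraP2KO replicate 1 stood above the other 7 arrays, which overlapped. Differences were 0.22 (SE 0.1595) for Pi16 and 0.20 (SE 0.163) for Dpp4, and without that array they were 0.07 for Pi16 and 0.05 for Dpp4.

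RictoraP2KO replicate 1 had the highest of the 8 signals for 20 of the 33 genes (60.6%), while it was the highest array for 14.3% of all genes and for 15.9% of those at or above the array median. It was the lowest array for 0 of the 33. The next array, RictoraP2KO replicate 2, was the highest for 5 genes, and RictoraP2KO replicate 3 for 0. As a mean over the 33 genes of each signal minus the gene's own mean over all arrays, the RictoraP2KO arrays stood at 0.26, 0.11, -0.08 and -0.03 and the control arrays at -0.02, -0.08, -0.12 and -0.04. RictoraP2KO replicates 3 and 4 thus lay within the range of the controls.

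The pattern of that array was uneven by function. All 4 fibroblast surface genes, 5 of 7 proteoglycan and dermatopontin genes and 4 of 7 elastic fibre genes were highest there, but Lox and Loxl1 lay below their own means. Over the 3 cross-linking enzymes the mean deviation was -0.10 in RictoraP2KO replicate 1, against 0.41 over the 4 fibroblast surface genes. Without this array the median difference was 0.27 for the cross-linking enzymes, 0.07 for the adhesive and matricellular genes, 0.06 for the proteoglycan and dermatopontin genes, the proteases and inhibitors, and the fibroblast surface genes, and -0.01 for the elastic fibre genes. Lep was also highest in this array, and markers of cardiac muscle were lowest there, with a list mean of -1.36 where the other arrays lay between -0.93 and 1.73. The part of these in the result was not tested.

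**Figure D3:**
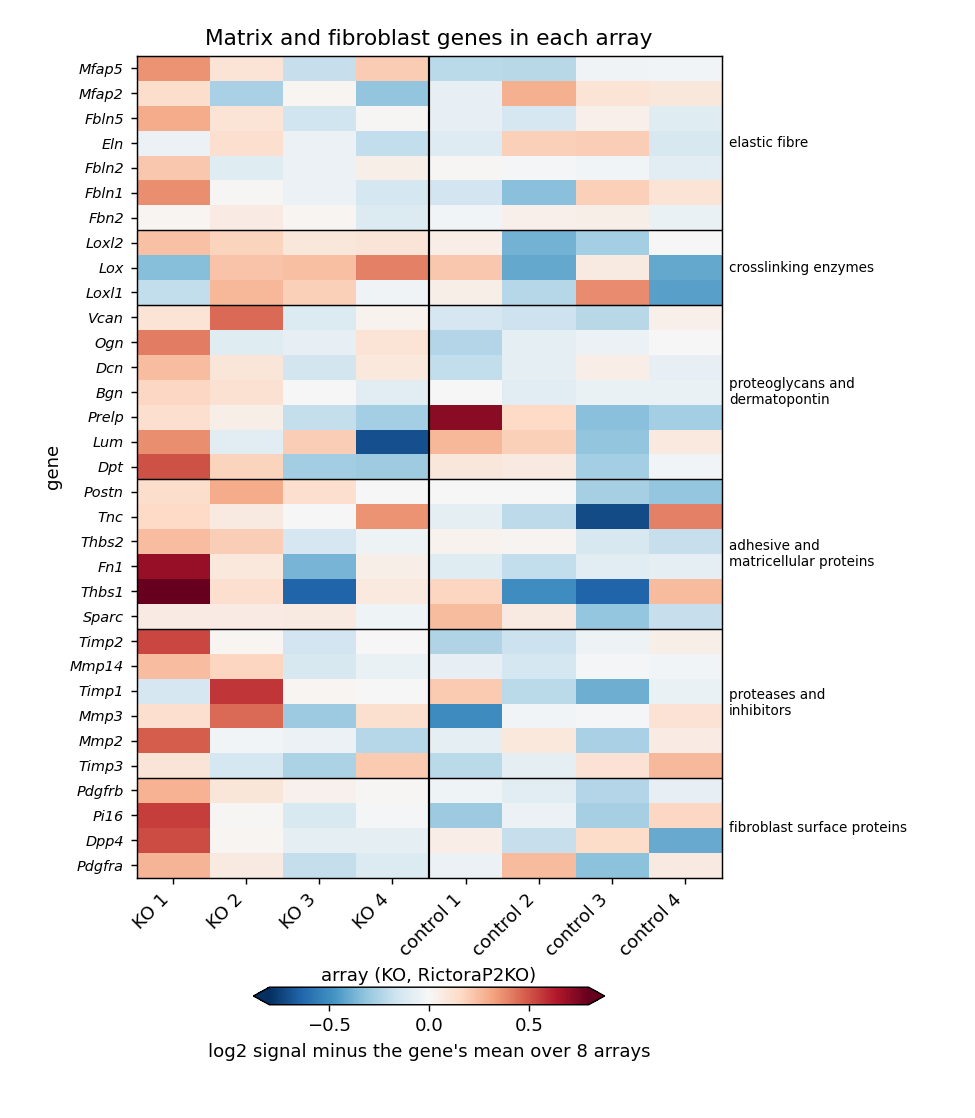
Log2 signal of each gene in each array minus the gene's mean over 8 arrays, in red where above and blue where below, with colours saturating beyond the ends of the scale; KO stands for RictoraP2KO and the columns left of the black line. The column of KO 1 is red for most genes but blue for Lox, Loxl1, Timp1 and Eln; 29 of 33 genes are above their mean there, 27 in KO 2, 10 in KO 3 and 16 in KO 4, against 10 to 14 in the control columns.

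Other genes of the matrix were taken from lists written for this comparison. The 8 collagen genes of interstitial matrix all had differences above 0 with a median of 0.16, and 0 passed. Col1a1, a chain of type I collagen, averaged 5.996 ± 0.19 in RictoraP2KO arrays and 5.67 ± 0.14 in control arrays (SD, n = 4 each), a difference of 0.33 (SE 0.109), followed by Col3a1 at 0.24 (SE 0.141) and Col1a2 at 0.17 (SE 0.104). RictoraP2KO replicate 1 was the highest array for 7 of the 8, and without it 6 lay above 0 with a median of 0.07. Without the 3 arrays of foreign tissue signal 5 lay above 0 with a median of 0.01. Of 36 other matrix genes 27 lay above 0 with a median of 0.09, and 0 passed. RictoraP2KO replicate 1 was the highest array for 15 of them, and without it 21 lay above 0 with a median of 0.05. Their smallest p-values belonged to Aspn, which encodes the proteoglycan asporin (0.25, SE 0.075), to the gelatinase gene Mmp9 (0.46, SE 0.176) and to Nid1, which encodes nidogen 1 of basement membranes (0.26, SE 0.1015).

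Of 16 measured genes of TGF-beta signalling, a pathway known to induce matrix genes in fibroblasts, 13 lay above 0 with a median of 0.13 and 0 passed. Without RictoraP2KO replicate 1 again 13 lay above 0, with a median of 0.06, and without the 3 arrays 9 did, with a median of 0.07. Skil, a repressor of SMAD proteins that the pathway itself induces, differed by 0.29 (SE 0.118), the receptor gene Tgfbr1 by 0.13 (SE 0.069) and Ltbp4, which binds latent TGF-beta, by -0.15 (SE 0.083). Of 13 other markers of fibroblasts 10 lay above 0 with a median of 0.14, and 0 passed. Without RictoraP2KO replicate 1, the highest array for 8 of them, the median was 0.0081 with 8 above 0. The median was 0.16 with 11 above 0 without the 3 arrays. Cd55, a regulator of complement found on Pi16-positive fibroblasts, differed by 0.52 (SE 0.160; limma adjusted p = 0.651), Fap by 0.29 (SE 0.1645) and Clec3b by 0.24 (SE 0.125). Leaving out RictoraP2KO replicate 1 gave 0.41 for Cd55, 0.21 for Fap and 0.16 for Clec3b. All of these genes, too, were measured in the same 8 arrays and are no independent support.

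Markers of other cell types were measured in the same arrays. All 9 macrophage markers had differences above 0 with a median of 0.35 and 0 passed. Their mean deviation ran from -0.24 to 0.42 in RictoraP2KO arrays and from -0.30 to 0.0026 in control arrays, with RictoraP2KO replicate 1 highest, as for the matrix genes. Leaving out that array left 8 of the 9 markers above 0 with a median of 0.27. Leaving out the 3 arrays left 8 above 0 with a median of 0.22. Of 7 endothelial markers 6 lay above 0, with means from -0.06 to 0.16 in RictoraP2KO arrays and from -0.11 to -0.0021 in control arrays. Of 9 smooth muscle markers, which belong to cells that also make elastin, 7 lay below 0, with means from -0.28 to 0.30 in RictoraP2KO arrays and from -0.30 to 0.24 in control arrays. The 8 mesothelial markers had means from -0.37 to 0.29 in RictoraP2KO arrays and from -0.25 to 0.48 in control arrays, and were high in RictoraP2KO replicates 1 and 3 and in control replicate 3. Fat cell markers, 6 of 10 above 0, had means from -0.05 to 0.16 in RictoraP2KO arrays and from -0.07 to 0.07 in control arrays. The highest of these, in RictoraP2KO replicate 1, came from Lep, and over the other 9 fat cell markers that array stood at -0.08. All 7 cartilage markers lay below 0 with a median of -0.05, and 6 of them had means below the array median. The part of any of these cells in the differences of the matrix genes was not tested.

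Signal of lung, nerve and skeletal muscle each stood out in a single array. The mean deviation of 9 lung markers ran from -0.41 to -0.31 in RictoraP2KO arrays and from -0.50 to 2.64 in control arrays, of 11 neuron markers from -0.29 to -0.13 in RictoraP2KO arrays and from -0.20 to 1.19 in control arrays, and of 10 skeletal muscle markers from -0.27 to 1.46 in RictoraP2KO arrays and from -0.25 to -0.08 in control arrays. Differences lay above 0 for 2 of 9 lung, 0 of 11 neuron and 10 of 10 skeletal muscle markers, and 0 passed. All 8 markers of B cells and lymph nodes had differences above 0, as the macrophage markers did, with a median of 0.22 and 0 passing. The median was 0.24 without RictoraP2KO replicate 1, and 0.19 with 7 of 8 above 0 without the 3 arrays. Their mean deviation ran from -0.31 to 0.65 in RictoraP2KO arrays and from -0.32 to 0.16 in control arrays, and its part in the differences of the matrix genes was not tested. RictoraP2KO replicate 1 lay at 0.01 in this list and at -0.25 in the skeletal muscle list, and was not the highest array for either.

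**Figure D4:**
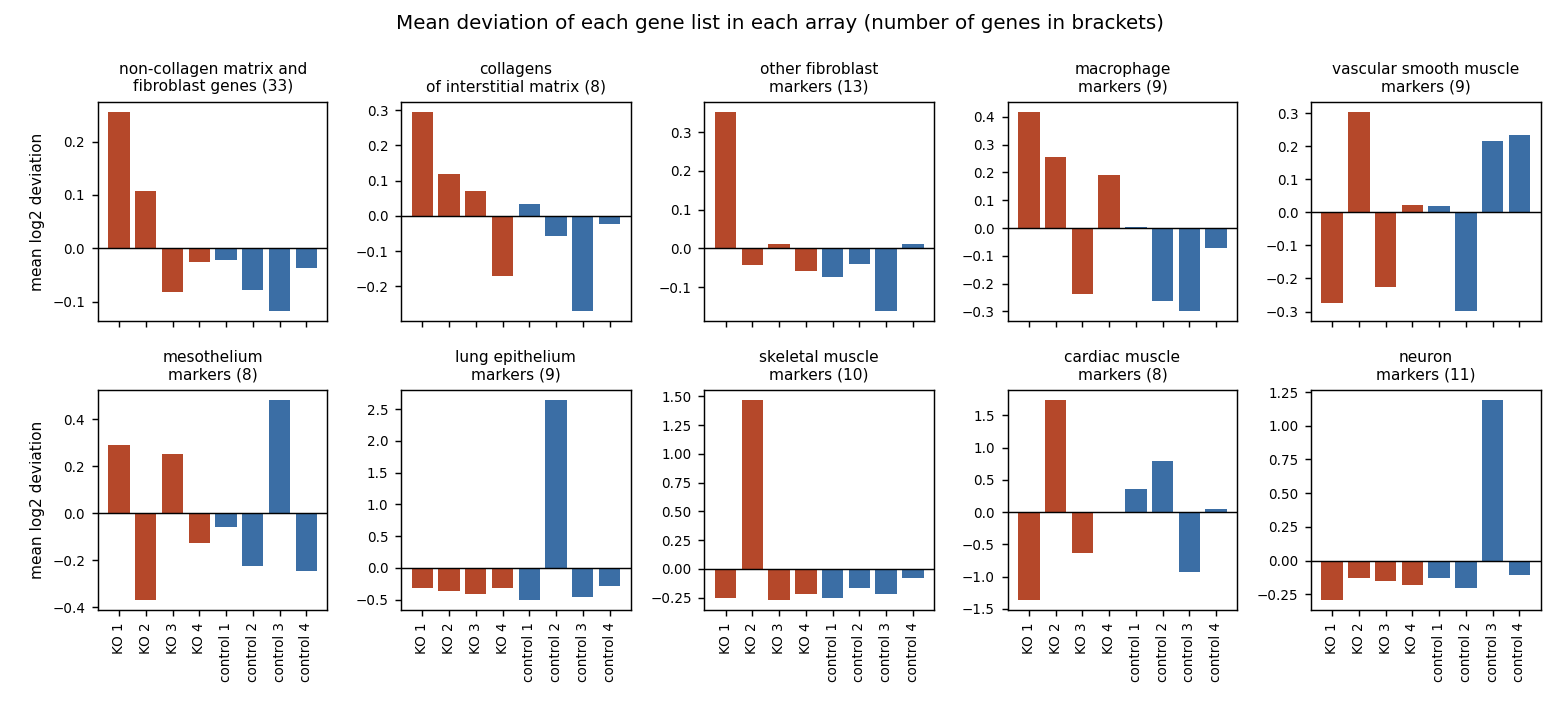
Mean over the genes of a list of the log2 signal minus the gene's mean over 8 arrays, for each array, with RictoraP2KO (KO) bars left of control bars and a separate vertical scale in each panel. The 33 matrix and fibroblast genes, the collagens, the other fibroblast markers and the macrophage markers were highest in KO 1, while lung, skeletal muscle and neuron markers each stood out in 1 other array.

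Promoter sequence was matched for 21 of the 33 genes in the RefSeq table of assembly GRCm38.p6. The 250 bases before the start site are shown for Postn, the 1 gene with no overlap between the groups that had an entry, and for Pi16 and Dpp4, which peaked together in RictoraP2KO replicate 1. Capitals mark CAGAC, the letters of the SMAD binding element, and TATAAA, the letters of the TATA box, on either strand; these motifs cannot overlap each other. The sequences lie at chr3:54360857-54361106 on the plus strand for the downstream of the 2 start sites of Postn, at chr17:29318632-29318881 on the plus strand for Pi16 and at chr2:62412232-62412481 on the minus strand for Dpp4.
Postn: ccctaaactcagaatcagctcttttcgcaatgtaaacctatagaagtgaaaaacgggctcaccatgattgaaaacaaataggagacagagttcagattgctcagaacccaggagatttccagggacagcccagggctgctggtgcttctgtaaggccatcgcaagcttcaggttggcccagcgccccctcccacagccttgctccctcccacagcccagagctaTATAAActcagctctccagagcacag
Pi16: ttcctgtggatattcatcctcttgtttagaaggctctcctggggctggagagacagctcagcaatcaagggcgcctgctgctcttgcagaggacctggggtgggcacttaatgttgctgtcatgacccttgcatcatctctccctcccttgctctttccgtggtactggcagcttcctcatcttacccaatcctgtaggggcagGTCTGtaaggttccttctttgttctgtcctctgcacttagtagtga
Dpp4: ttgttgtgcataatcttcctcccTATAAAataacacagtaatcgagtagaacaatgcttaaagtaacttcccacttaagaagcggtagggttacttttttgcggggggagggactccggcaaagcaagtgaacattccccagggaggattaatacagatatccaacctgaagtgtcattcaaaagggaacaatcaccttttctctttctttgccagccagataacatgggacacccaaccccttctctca
TATAAA begins 26 bases before the Postn start and 227 bases before the Dpp4 start, and was found in 12.4% of the 32817 windows of this length in the table. CAGAC, read on the other strand, begins 46 bases before the Pi16 start, and was found in 42.2% of windows. Neither motif was common to the 3 windows.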

How the data were processed

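Thoracic perivascular fat was profiled with 1 Affymetrix array for each of 8 samples, 4 RictoraP2KO and 4 control. The deposited log2 values were made by the authors with RMA, and the submitters' processing notes name Affymetrix Power Tools 1.10.2. A genome build was not given in the sources used here. RMA forces nearly equal distributions, so a change in total RNA would not be seen. Correlations between arrays lay between 0.989 and 0.995.

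Of 28371 probe sets the platform annotation gave 1 symbol to 21158, several to 1881 and none to 5332, and probe sets with several symbols named no gene. RictoraP2KO and control were compared by a two-sided linear model with moderated variance (lmFit, then eBayes, of limma 3.58.1 under R 4.3.3), without filter or covariate, and p-values were adjusted by the Benjamini-Hochberg method for all 28371 tests; the code was tested on simulated data. All measured genes of the list were named, with Rictor. Up to 3 genes by unadjusted p were named from the collagen, other matrix, TGF-beta and other fibroblast lists. Lists of other cell types were given as counts and means, without genes named by p. Marker genes named for single arrays (Lep, Th, Myh4 and Sftpc) were chosen after their values were seen. The genes and lists were chosen with earlier results of these data known. Alternatives were removal of dim probe sets, a second quantile normalisation, centring on medians, a variance trend, a robust prior, weights per array, a block for replicate number, the mean of a gene's probe sets, an adjusted p under 0.1, each array left out in turn, and 3 arrays left out together. The mean of the fat cell markers without Lep was added after seeing the data.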

Additional observations from a re-analysis of the deposited data

Results flagged for a closer look

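Of 66 groups of 4 values (33 genes in 2 groups), 2 held a value whose gap to its nearest neighbour, as a share of the group's range, passed Dixon's 95% critical value, where chance gives about 1 in 20. Dpp4 stood at 6.383 in RictoraP2KO replicate 1, against 5.783 to 5.875 in the other RictoraP2KO arrays. Sparc stood at 10.49 in RictoraP2KO replicate 4, against 10.59 to 10.60 in the other RictoraP2KO arrays, a gap smaller than the spread of the control arrays.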

How the results depend on the processing

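None of the 33 genes passed the adjusted threshold under any alternative run, including an adjusted p under 0.1; the smallest limma adjusted p was 0.431, for Mfap5 without RictoraP2KO replicate 3. Of 558 differences under an alternative 532 kept their sign and 26 did not, 18 of these with 1 array left out. Sparc, at 0.0 without the 3 arrays, was counted as kept. The variance trend, robust prior, replicate block and removal of dim probe sets cannot change a difference here. The mean of probe sets could change only that of Loxl2. Kept signs in these runs were fixed in advance and say nothing of stability. Of the 264 differences with 1 array left out, 246 kept their sign. The count at an unadjusted p under 0.05 was 0 without the 3 arrays, 2 to 8 with 1 array left out (8 without RictoraP2KO replicate 3), and 3 otherwise, or 2 with the mean of probe sets. Without the 3 arrays only RictoraP2KO replicates 1, 3 and 4 and control replicates 1 and 4 remained, so a small p-value was harder to reach. The differences were then 0.25 for Postn, 0.16 for Pdgfrb and 0.12 for Loxl2. Genes without overlap numbered 3 to 7 with 1 array left out, 7 without RictoraP2KO replicate 3 and 5 without control replicate 4, where fewer arrays make a gap easier. Shares of all genes at an unadjusted p under 0.05 or without overlap were not counted with arrays left out. Such counts of the 33 genes thus have no background beside them and are no result about these genes. Genes above 0 numbered 22 to 29 with 1 array left out, and the median ran from 0.057 to 0.20. Signs turned without the 3 arrays for Fbn2 (0.0147), Eln (0.0177), Thbs1 (-0.0192), Timp1 (-0.12), Pdgfra (-0.0233) and Dpt (-0.0505), and with array weights for Pdgfra (-0.0415) and Dpt (-0.0149). With 1 array left out the range included both signs for Lum (-0.25 to 0.11), Fbn2 (-0.0271 to 0.0309), Loxl1 (-0.0090 to 0.26), Sparc (-0.0058 to 0.18), Timp3 (-0.12 to 0.0418), Mmp2 (-0.0528 to 0.19), Fbln1 (-0.0127 to 0.17), Fbln2 (-0.0064 to 0.10), Prelp (-0.275 to 0.0767), Pdgfra (-0.0834 to 0.11) and Dpt (-0.10 to 0.17). The cause was not tested. Same-numbered arrays did not deviate together, with correlations of deviations from -0.154 to 0.087. Of 4 RictoraP2KO arrays 0 correlated best with its own number. The replicate block left 0 genes passing and 3 at an unadjusted p under 0.05. Each replicate number occurs in both groups, so the block could not change the differences, and the median stayed at 0.13 by design.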
